A study of Mus musculus with 2 samples.

Results

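Nuclei of the fetal mouse brain that carried RNA of Eomes were described here. Eomes, also called Tbr2, encodes a T-box transcription factor of intermediate progenitors. A nucleus was taken when it held at least 2 unique molecular identifiers (UMIs, each 1 counted RNA molecule) of Eomes, or 1 Eomes UMI together with at least 1 UMI of Neurog2, Neurog1, Insm1 or Mfap4. Nuclei with more than 4 UMIs summed over the dividing-cell genes Top2a, Mki67, Kif11, Kif23, Knl1, Cenpf and Aspm were left out, as were nuclei with more than 2 UMIs of Reln and Trp73, which mark Cajal-Retzius cells. These nuclei, called members below, numbered 423 of 13366 kept nuclei and of 20574 deposited barcodes. They comprised 238 from the library labelled wildtype and 185 from the library labelled knockout.

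Intermediate progenitors arise in the developing cerebral cortex from radial glia, the stem cells that line the ventricle. They lose the contact with the ventricle, settle in the subventricular zone and divide to give glutamatergic neurons of the cortical layers. Neurog2 and Neurog1 are basic helix-loop-helix factors that start neuron formation, Insm1 is a zinc finger factor of newly committed progenitors, and Mfap4 encodes an extracellular matrix protein used as a marker of these cells. Notch signalling between neighbouring cells holds radial glia back from this step.

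The study compared whole fetal brain of wildtype mice and of mice with a knockout of Cav1, the gene of caveolin 1, a membrane protein that forms caveolae. Each genotype had 1 library of nuclei from frozen tissue. The labels give neither the embryonic day nor the Cav1 allele, nor how many brains went into a library, and nothing else was given to either group. With 1 library per genotype no difference between them could be tested, so p-values are not given, and every interval below is a 95% interval that covers counting error only.

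Before filtering, the library labelled wildtype held 9763 barcodes and the library labelled knockout 10811. Nuclei were kept from 500 genes upward, with mitochondrial genes giving no more than 5% of UMIs, which left 6686 and 6680. The median member held 2175.5 UMIs in the library labelled wildtype (range 652 to 15651) and 2450 in the library labelled knockout (range 651 to 18723), close to the medians of all kept nuclei, 2133.5 and 2366. The libraries shared 43 barcodes, 10 of them kept in both, and no member barcode was shared.

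Cav1 did not separate the libraries by their labels. Among members there was 1 Cav1 UMI in the library labelled wildtype and there were 4 in the library labelled knockout, and among the other kept nuclei there were 70 and 76. The allele is not given, and a count from the 3′ end of an mRNA checks a deletion only if the deletion includes that end. Cav2, which encodes the partner protein caveolin 2, had 0 UMIs in members of the library labelled wildtype and 29, in 22 of 185 members (11.9%, interval 7.60% to 17.4%), in the library labelled knockout. Against a floor of 3 UMIs over the wildtype members, its level was 10.8-fold higher there, and the counting interval of the ratio itself began at 8.22-fold. The 0 of 238 members allows a share of up to 1.26%. Gm15581, a long noncoding RNA gene on the minus strand of chromosome 6 (GRCm39, 17206822 to 17385603) that overlaps both Cav2 (17281026 to 17289877, plus strand) and Cav1 (17306140 to 17341451, plus strand), had 1 and 55 UMIs. That is a ratio of 61.4 with a counting interval from 10.6 to 2467. Since the use of strand in the counting is not given, reads of Gm15581 and of these genes cannot be told apart. Rnf121, which encodes an E3 ubiquitin ligase on chromosome 7 and was chosen after its values were seen, had 68 UMIs (102 CPM) and 28 UMIs (46.7 CPM), a log2 ratio of -1.12 (interval -1.81 to -0.47). Here and below CPM stands for counts per 1000000 UMIs of the same nuclei, and a log2 ratio is that of the library labelled knockout over the library labelled wildtype unless stated otherwise. In the 2 clusters that hold most members, described below, Rnf121 was at 26 and 16 UMIs and its log2 ratio was -0.40 (-1.40 to 0.55). The other kept nuclei had Rnf121 at 171 and 54.6 CPM, Cav2 at 1.15 and 38.1 CPM, and Cav1 at 4.23 and 3.94 CPM.

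The values that chose the members are given as a description. Of the 423 members, 200 had 1 Eomes UMI with a partner gene, 146 had 2, 66 had 3 or 4 and 11 had 5 or more. The members held 449 Eomes UMIs in the library labelled wildtype (672 CPM) and 321 in the library labelled knockout (536 CPM). Neurog2 was at 287 and 274 CPM, with a UMI in 49.6% and 56.2% of members. Just outside the rule lay 372 nuclei with 1 Eomes UMI and no partner UMI, 42 nuclei that met the Eomes condition with at least 5 dividing-cell UMIs, and 49 that met it with more than 2 UMIs of Reln and Trp73. The last of these were deep, with a median of 8356 UMIs.

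Genes outside the rule separated the nuclei on either side of the partner condition. Celsr1, a planar polarity cadherin, was detected in 47.5% of the 200 members with 1 Eomes UMI (interval 40.4% to 54.7%) and in 19.4% of the 372 nuclei with 1 Eomes UMI and no partner (15.5% to 23.7%). Rhbdl3, a rhomboid-like membrane protein, had the same shares, 47.5% and 19.4%. Btg2, an antiproliferative gene of neurogenic divisions, was detected in 22.0% and 9.68%. The median depths were 2285 and 2028.5 UMIs, and all 3 shares in the nuclei without a partner lay above those of nuclei without Eomes, 10.7% for Celsr1, 9.72% for Rhbdl3 and 6.26% for Btg2.

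The partner genes could be read independently of the rule in the 223 members with at least 2 Eomes UMIs, for which the rule asks for no partner. Neurog2 had a UMI in 44.4% of them (interval 37.8% to 51.2%) and in 7.10% of the 12416 kept nuclei without Eomes (6.65% to 7.56%). Mfap4 was detected in 17.9% (13.1% to 23.6%) and 3.25%. Insm1 was detected in 13.0% (8.89% to 18.1%) and 6.22%. Neurog1 was rare, at 2.24% (0.73% to 5.15%) and 0.24%. The median depths were close, 2288 and 2229 UMIs. After thinning every nucleus to 1000 UMIs the shares for Neurog2 were 26.1% and 3.14%, and those for Mfap4 10.6% and 1.64%. For Insm1 the thinned shares were 5.50% (2.88% to 9.42%) and 2.76% (2.46% to 3.09%), and for Neurog1 0.92% (0.11% to 3.27%) and 0.09% (0.05% to 0.17%), with intervals that overlapped. Markers of the label were thus present, but not in each nucleus, since 99 of the 223 held a Neurog2 UMI at this depth. Sox2, a stem cell factor, was detected in 6.28% and 8.04%, and after thinning in 0.46% (0.01% to 2.53%) and 3.17% (2.84% to 3.52%).

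**Figure D1:**
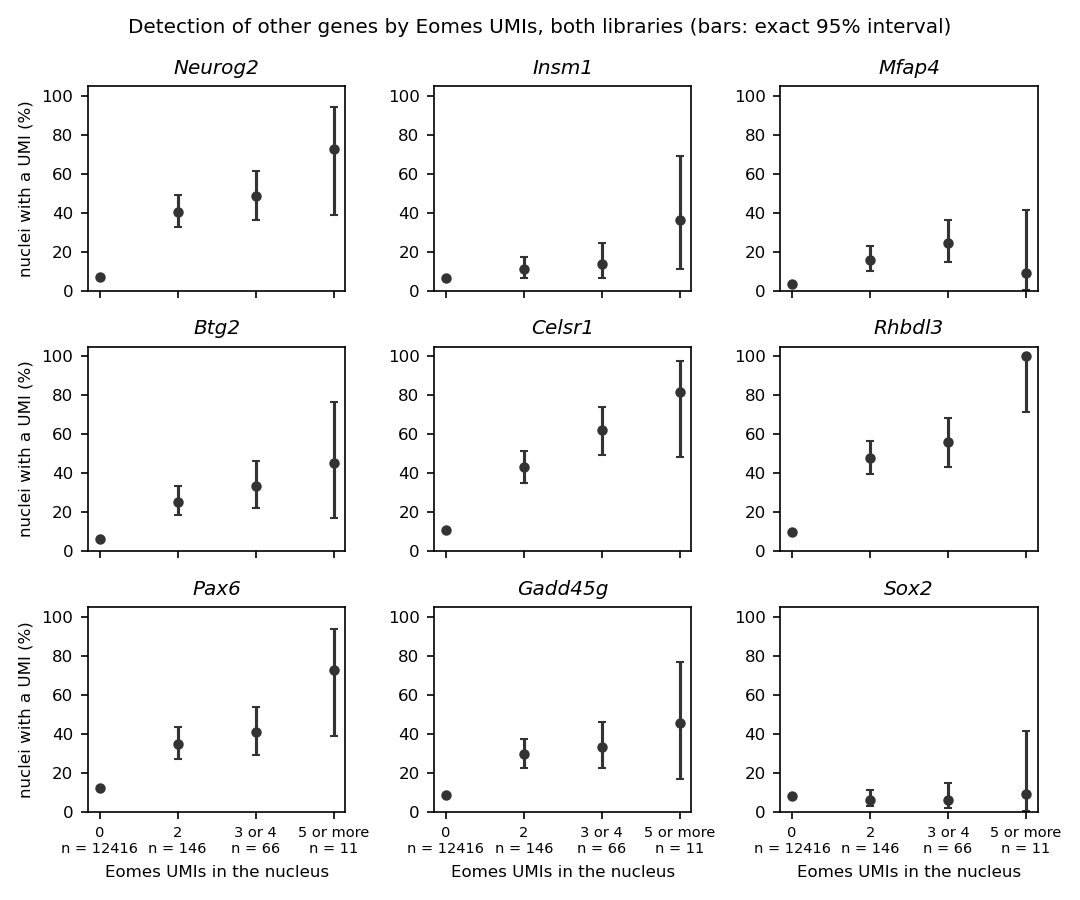
Share of nuclei with at least 1 UMI of each gene (percent, y axis) by the number of Eomes UMIs in the nucleus (x axis), over both libraries, with exact 95% intervals. Neurog2, Celsr1 and Rhbdl3 were detected in more nuclei at 2 Eomes UMIs or more than at 0, while the shares for Sox2 lay between 6.06% and 9.09% without thinning. Nuclei with 1 Eomes UMI are not drawn, since the rule chose them by partner genes.

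Nuclei of types that should lack Eomes give a background for such shares. Whether their Eomes UMIs came from free RNA or from doublets was not tested. In a set of 356 nuclei with at least 4 UMIs of forebrain inhibitory neuron genes and at most 2 of cortical neuron genes, which should lack Eomes, 8 held an Eomes UMI (2.25%, interval 0.98% to 4.38%) and 0 met the rule (interval 0% to 1.03%). In a vascular and meningeal set of 372 nuclei with at least 4 UMIs of endothelial, mural or fibroblast genes, 22 held an Eomes UMI (5.91%) and 8 met the rule (2.15%, interval 0.93% to 4.19%). Their median depths were 2020 and 2991 UMIs. In all kept nuclei the shares were 7.11% for an Eomes UMI and 3.16% for the rule.

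Genes of the dorsal forebrain were found more often in members than in the other kept nuclei. At least 1 UMI of Emx1, Emx2 or Lhx2, transcription factors of that region, was found in 49.6% of members of the library labelled wildtype (interval 43.1% to 56.1%) and in 48.6% of those of the library labelled knockout (41.2% to 56.1%). The other kept nuclei had 24.9% and 23.3%. Without any of these 3, and with a UMI of a midbrain, hindbrain or rhombic lip gene, were 16 members (3.78%), against 8.67% of other nuclei. In the libraries labelled wildtype and knockout these shares were 2.52% and 5.41% of members, and 5.20% and 12.1% of other nuclei. Tbx21, a mitral cell factor of the olfactory bulb, and Cdhr1 had together 0 and 1 UMI in members. Markers of other cell types were present at low levels: at least 3 UMIs of forebrain inhibitory genes in 5.67% of members (17.5% of other nuclei), of endothelial, mural or fibroblast genes in 3.07% (3.85%), and of microglia genes in 2.36% (1.85%). Haemoglobin and other erythroid genes reached 3 UMIs in 41.6% of members and 40.4% of other nuclei.

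The gene of Eomes lies on the plus strand of chromosome 9 (GRCm39, 118307280 to 118315200), Neurog2 on the plus strand of chromosome 3 (127426448 to 127429280), Btg2 on the minus strand of chromosome 1 (134002908 to 134015033) and the transcription repressor gene Zbtb18 is among the progenitor-associated genes below. To show the regulatory sequence from which members of this gene group are read, the 250 bases before the RefSeq start (GRCm38.p6) are printed for 4 of them, 5′ to 3′ on the strand of the gene, with Zbtb18 taken after the search to show a match. Capitals mark CAGATG or its reverse complement CATCTG, an E-box of the kind that neurogenic helix-loop-helix factors bind. They are chr9:118477939-118478188 (plus), chr3:127632886-127633135 (plus), chr1:134079156-134079405 (minus) and chr1:177442101-177442350 (plus).
Eomes: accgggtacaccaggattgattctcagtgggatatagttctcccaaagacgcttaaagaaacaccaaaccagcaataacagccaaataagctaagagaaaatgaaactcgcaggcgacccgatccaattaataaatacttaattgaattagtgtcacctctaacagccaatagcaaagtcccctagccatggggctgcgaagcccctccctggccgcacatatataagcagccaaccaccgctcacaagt
Neurog2: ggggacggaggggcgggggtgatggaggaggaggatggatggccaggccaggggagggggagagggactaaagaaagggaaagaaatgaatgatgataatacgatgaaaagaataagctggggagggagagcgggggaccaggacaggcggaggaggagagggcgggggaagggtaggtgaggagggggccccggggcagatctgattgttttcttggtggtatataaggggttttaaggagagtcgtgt
Btg2: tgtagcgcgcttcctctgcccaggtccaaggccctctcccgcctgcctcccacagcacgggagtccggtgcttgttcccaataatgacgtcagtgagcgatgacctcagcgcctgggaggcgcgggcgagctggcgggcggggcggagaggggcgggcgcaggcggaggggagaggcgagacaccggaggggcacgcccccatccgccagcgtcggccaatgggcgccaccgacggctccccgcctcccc
Zbtb18: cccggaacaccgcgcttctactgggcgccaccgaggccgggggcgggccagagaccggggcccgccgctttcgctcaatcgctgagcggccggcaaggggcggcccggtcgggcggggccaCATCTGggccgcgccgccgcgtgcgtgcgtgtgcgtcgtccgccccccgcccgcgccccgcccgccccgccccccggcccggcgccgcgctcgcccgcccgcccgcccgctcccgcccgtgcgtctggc
Of 40 genes looked up (the rule's markers, the 20 leading genes below and the progenitor-associated list), 31 had at least 1 promoter entry. CAGATG or CATCTG was found upstream of 6 of the 31, and among all 27025 genes with an entry it was found for 16.3%. The T-box sequence GGTGTGA or TCACACC was found in 0 of the 53 entries of these 31 genes, and in 3.33% of all 32851 promoter entries. The letters are a description of these windows only.

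Against the rest of the brain, Rhbdl3, Celsr1, Abcd2, Ust and Gm29260 had the highest fold in members. Only genes with at least 100 UMIs over both libraries in members were compared, 2876 in all, and a gene was called leading when its CPM in members was more than 2-fold that of the other kept nuclei in each library. That held for 90 genes (3.13%), and 33 (1.15%) were lower by the same measure. Genes low in members drop out at 100 UMIs, so the balance of higher against lower genes here and below is set in part by that minimum. Since the members were chosen on expressed genes, these are descriptions with no test. The 20 with the highest fold, leaving out genes of the rule, were Rhbdl3, Celsr1, Abcd2, Ust, Gm29260, Tfap2c, Btg2, Igsf8, Sema5a, Plcxd2, Gadd45g, Heg1, Slc30a10, Cbfa2t2, Synpr, Serinc5, Lypd6, Siah3, Lzts1 and Phldb2.

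Rhbdl3 (chromosome 11, 80191461 to 80247133, plus strand) stood at 371 CPM (interval 326 to 420) in members and 65.8 CPM in other nuclei of the library labelled wildtype, and at 305 CPM (263 to 353) and 51.1 CPM in the library labelled knockout. Its log2 fold over other nuclei was 2.50 and 2.58. Celsr1 (chromosome 15, 85783126 to 85918438, minus strand) stood at 305 and 279 CPM in members against 63.6 and 52.3 CPM, a log2 fold of 2.26 and 2.41. Tfap2c, a transcription factor of the AP-2 family that is expressed in basal progenitors, was at 102 CPM in members of each library, against 25.6 and 18.5 CPM. Gadd45g, a growth arrest and DNA damage gene, was at 171 and 144 CPM against 40.3 and 42.9 CPM. Sema5a, a semaphorin, was at 519 and 504 CPM against 147 and 132 CPM. Abcd2, a peroxisomal transporter of fatty acids, was at 102 and 108 CPM against 22.6 and 17.5 CPM. For each of these genes the members' intervals lay above the level of the other nuclei in both libraries. The genes were called leading for being past 2-fold in each library, so this describes the choice and is no separate result.

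These genes were split by how they compared with the populations on either side of the progenitor step. A radial-glia set of 316 nuclei without Eomes had at least 5 UMIs of radial glia genes, a dorsal forebrain UMI and few neuron UMIs. An Unc5d set of 2513 nuclei without Eomes had at least 2 UMIs of Unc5d, a netrin receptor of migrating cortical neurons, and at least 2 of cortical neuron genes. The limit of 4 dividing-cell UMIs was set for the radial-glia set as for the members, but not for the Unc5d set. Tfap2c was at 104 and 90.7 CPM in the radial-glia set, level with the members, but at 18.1 and 10.3 CPM in the Unc5d set. Gm29260, a long noncoding RNA, followed the same order, with 1213 and 901 CPM in members, 1223 and 785 CPM in the radial-glia set and 266 and 167 CPM in the Unc5d set. Plcxd2 was low on both sides, with 115 and 78.4 CPM in members, 16.2 and 19.6 CPM in the radial-glia set and 35.03 and 29.99 CPM in the Unc5d set. Lzts1, which encodes a microtubule-linked protein of cells that leave the ventricular surface, was at 247 and 212 CPM in members, 51.8 and 44.1 CPM in the radial-glia set and 104 and 72.7 CPM in the Unc5d set. Cbfa2t2, a transcriptional corepressor, was at 730 and 599 CPM, against 265 and 199 CPM and 275 and 208 CPM. Over all genes compared, 96 (3.34%) were above the radial-glia set and 17 (0.591%) below it by the 2-fold rule in each library, and 77 (2.68%) were above the Unc5d set and 51 (1.77%) below it.

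**Figure D2:**
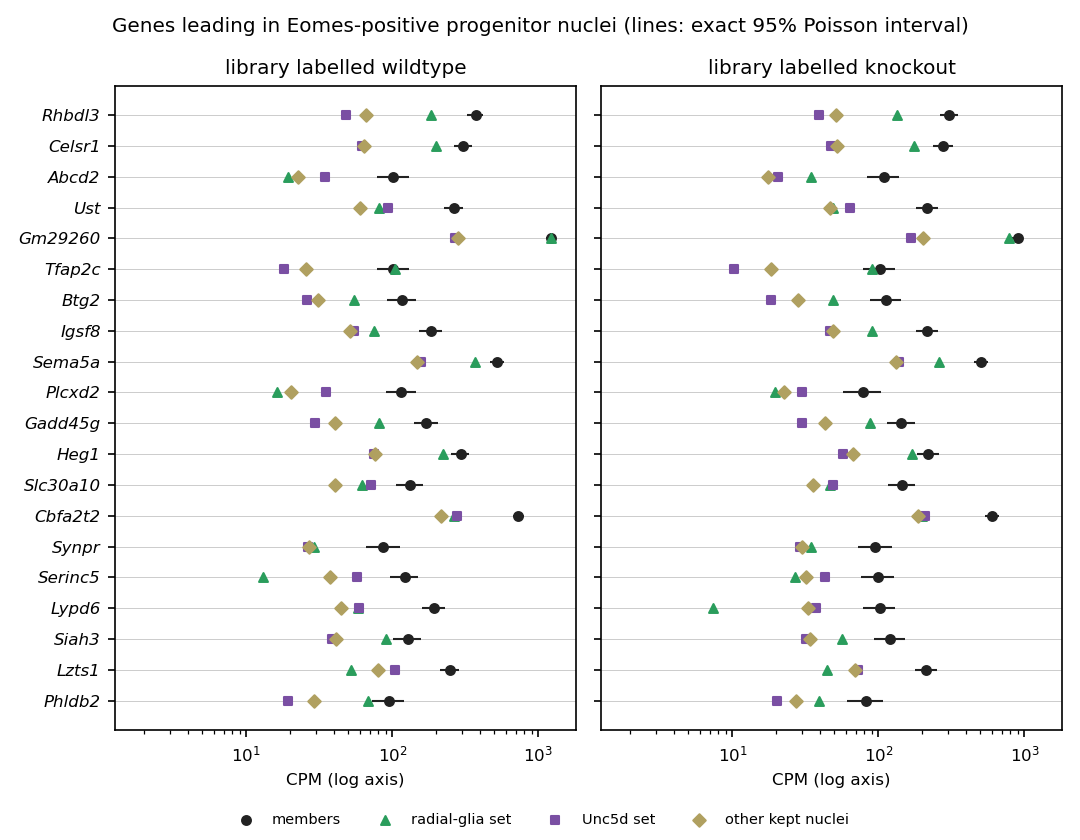
CPM on a log axis of the 20 leading genes in members, the radial-glia set, the Unc5d set and all other kept nuclei, for the library labelled wildtype on the left and the library labelled knockout on the right. Lines are exact 95% Poisson intervals of the members. Tfap2c and Gm29260 have members and the radial-glia set together, while Plcxd2, Lzts1 and Cbfa2t2 have the members to the right of all 3 other populations.

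The list of genes associated with intermediate progenitors held 20 genes, 16 of them compared, and was summed at 4620 and 4271 CPM in members. The other nuclei had 2159 and 2013 CPM, the radial-glia set 2928 and 2310 CPM, and the Unc5d set 2418 and 2115 CPM. By the 2-fold rule in each library 10 of the 16 were higher than in other nuclei, beside 3.13% of all genes compared. The median log2 fold was 1.29 and 1.23 against 0.11 and 0.11 for all genes compared. The list was chosen with earlier results of these data known, and list genes low in members were not compared. These values therefore describe the list and are no independent test that progenitor genes are higher in members. Among the 10 were the RNA-binding neuronal proteins Elavl2 (1035 and 990 CPM against 410 and 432 CPM) and Elavl4 (512 and 484 CPM against 215 and 211 CPM), the somatostatin receptor Sstr2 (85.3 and 83.4 CPM against 29.99 and 24.7 CPM), the chromatin remodeller Chd7 (598 and 507 CPM against 199 and 211 CPM) and Hes6 (102 and 112 CPM against 48.4 and 42.2 CPM). The 6 that did not pass were Pou3f2, Pou3f3, Cux1, Cux2, Ccnd2 and Zbtb18. Cux2, an upper-layer factor, was at 220 and 219 CPM in members and at 214 and 188 CPM in other nuclei. Zbtb18 was at 169 and 140 CPM, against 112 and 87.7 CPM. Neurod1, Neurod4, Nhlh1 and Nhlh2 had at most 14 UMIs in either library and were not compared.

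Notch pathway genes were counted in their roles. Of 24 genes, 8 were compared, and Mfng, a glycosyltransferase that modifies Notch, and Hes6, which opposes Hes1, were higher than in other nuclei by the 2-fold rule (beside 3.13% of all genes compared). Genes low in members, such as Hes1 and Hes5, could not be called lower. The Notch list too was chosen with earlier results of these data known, so its count is a description only. Mfng was at 71.8 and 90.1 CPM in members against 25.03 and 21.9 CPM. The receptor Notch1 was at 86.8 and 85.1 CPM in members and at 188 and 145 CPM in the radial-glia set. The ligand Dll1, at 34 and 36 UMIs too sparse to be compared, was at 50.9 and 60.1 CPM in members and 20.6 and 17.3 CPM in other nuclei, and the radial-glia set held 7 of its UMIs in each library. The Notch targets Hes1 and Hes5 had 8 and 5 UMIs, and 25 and 22 UMIs.

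S-phase and migration genes placed the members between the radial-glia set and the Unc5d set. S-phase genes, 26 genes of DNA replication, summed to 766 and 684 CPM in members, 1453 and 1376 CPM in the radial-glia set and 498 and 420 CPM in the Unc5d set. Other genes of the G2 and M phases summed to 332 and 269 CPM in members. The radial-glia set, under the same limit on dividing genes, was higher (669.7 and 505 CPM). The Unc5d set (392 and 345 CPM) and other nuclei (555 and 480 CPM) had no such limit, so these genes cannot place the members against them. The 18 migration genes summed to 7034 and 7557 CPM, between 3407 and 3350 CPM in the radial-glia set and 10473 and 9088 CPM in the Unc5d set, which was chosen on 1 of them. Of 12 migration genes compared, Lrp8, a reelin receptor, was higher than in other nuclei by the 2-fold rule (377 and 315 CPM against 153 and 156 CPM). Lower by the same rule was Dab1, the adaptor of reelin signalling (386 and 337 CPM against 806 and 752 CPM). The dividing nuclei that met the Eomes rule numbered 42, and Sox2 had a UMI in 19.0% of them against 6.15% of members, at median depths of 3235.5 and 2288 UMIs.

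Both radial glia and cortical neuron RNA were found in most members, at levels no higher than in other nuclei. Radial glia genes summed to 1531 and 1287 CPM in members and 1609 and 1573 CPM in other nuclei, and cortical neuron genes to 2358 and 2130 CPM and to 3085 and 2520 CPM. At least 1 UMI of 14 radial glia genes was found in 94.96% and 91.4% of members, and of 10 cortical neuron genes in 91.6% and 95.7%. At 1000 UMIs per nucleus these shares were 76.4% and 67.0%, and 82.5% and 84.9%. Pax6, the radial glia factor that precedes Eomes, was at 203 and 192 CPM in members, 85.5 and 72.4 CPM in other nuclei, 359 and 235 CPM in the radial-glia set and 65.1 and 48.5 CPM in the Unc5d set. Sox2, a factor of stem cells, had 18 and 9 UMIs. Each member with at least 5 UMIs of the 2 lists together was given an index, the share of cortical neuron UMIs in that sum, so that 0 means only radial glia UMIs and 1 only cortical neuron UMIs. The index is a range and not a type. Of 326 members with enough UMIs, 25 were at 0.2 or below (13 and 12), 228 lay between (127 and 101) and 73 were at 0.8 or above (37 and 36), and 97 members had too few UMIs. Within 0.05 of the lower boundary lay 19 members and within 0.05 of the upper 43. The share at 0.8 or above was 20.9% (interval 15.2% to 27.6%) in the library labelled wildtype and 24.2% (17.5% to 31.8%) in the library labelled knockout, with intervals that overlapped.

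Several genes that the index does not use differed along it in the same direction in both libraries. Tfap2c was at 282 and 362 CPM at an index up to 0.2, at 64.1 and 102 CPM between, and at 46.1 and 31.9 CPM from 0.8. Gadd45g was at 282 and 331 CPM, 150 and 165 CPM, then 92.2 and 44.6 CPM. Summed over 26 genes of DNA replication, the S-phase list was at 1412 and 1416 CPM, 814 and 662 CPM, then 484 and 542 CPM. The lowest index had the highest level for each of these. Unc5d was the reverse, with 125 and 271 CPM at the lowest index, 1630 and 1853 CPM between and 2283 and 2219 CPM at the highest. Robo2, a Slit receptor of axons, was at 125 and 994 CPM, 1620 and 1733 CPM, then 3198 and 2748 CPM, so the libraries differed at the lowest index, where they held 13 and 12 nuclei. Plxna4, a semaphorin receptor, was at 94.1 and 151 CPM, 631 and 617 CPM, then 1107 and 803 CPM. Over the 18 migration genes the sum was 1945 and 3616 CPM at the lowest index and 10585 and 10054 CPM at the highest. Of the genes that chose the members, Eomes was at 596 and 633 CPM, 609 and 492 CPM, then 523 and 357 CPM, and Neurog2 at 408 and 422 CPM, 291 and 264 CPM, then 169 and 159 CPM. The median depth also differed along the index, at 1983, 2532.5 and 2994 UMIs, and so did the clusters, since 21 of 25, 169 of 228 and 42 of 73 members lay in the 2 main clusters described below. The part of either in these levels was not tested.

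**Figure D3:**
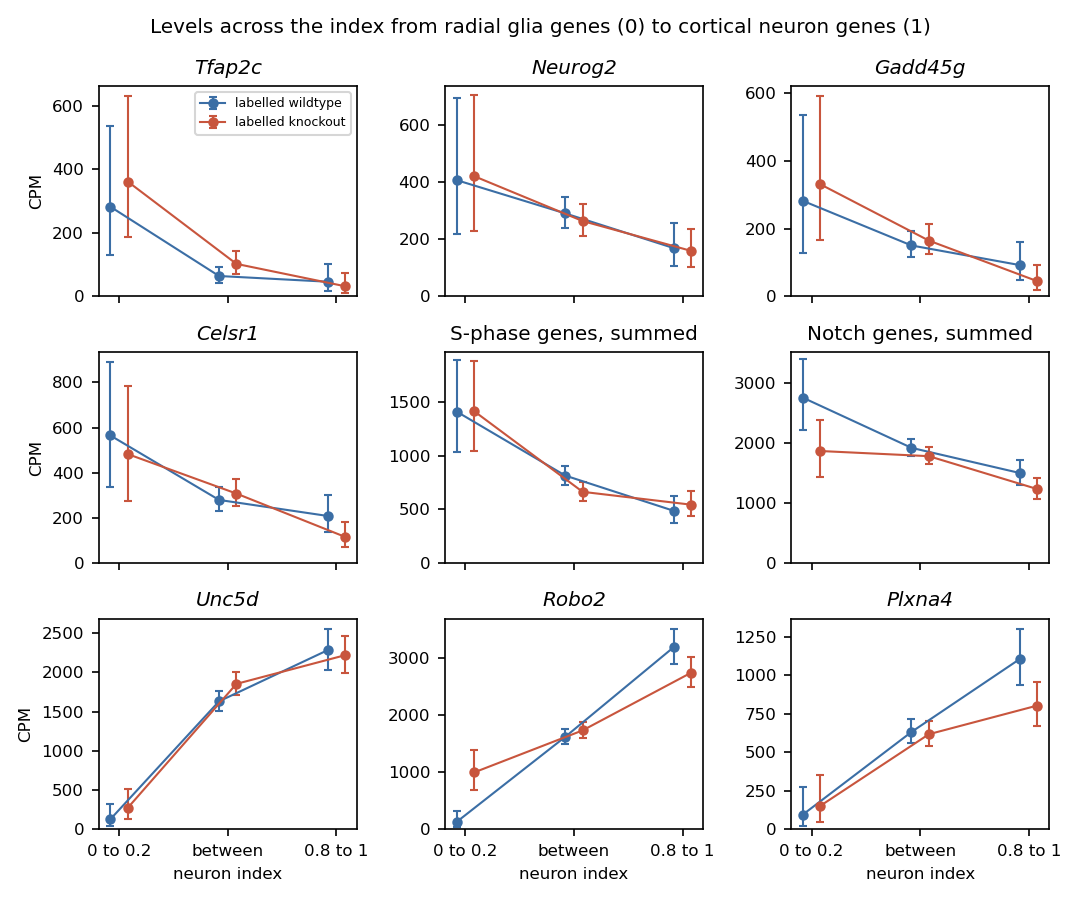
CPM (y axis) of 7 genes and 2 summed lists in members at a neuron index of 0 to 0.2, between, and 0.8 to 1 (x axis), for each library, with exact 95% Poisson intervals. Tfap2c, Neurog2, Gadd45g, Celsr1, S-phase and Notch genes (without Hes1 and Hes5) are lower, and Unc5d, Robo2 and Plxna4 higher, at the highest index than at the lowest in both libraries.

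Members made up a smaller share of the library labelled knockout. They were 3.56% of kept nuclei in the library labelled wildtype (238 of 6686, interval 3.13% to 4.03%) and 2.77% in the library labelled knockout (185 of 6680, 2.39% to 3.19%). The difference was -0.79 percentage points (Newcombe interval -1.39 to -0.20). It kept its sign in each of 6 other settings, and its interval included 0 with a minimum of 1000 genes per nucleus (-0.67 points, -1.40 to 0.058). With at least 2 Eomes UMIs required, the shares were 2.02% and 1.32%. At an equal depth of 1000 UMIs they were 1.59% and 1.13% (-0.46 points, -0.89 to -0.034). Nuclei of whole brain from 1 library each were compared, so how the tissue was sampled and the genotype cannot be told apart. Among the other kept nuclei, the share with an Emx1, Emx2 or Lhx2 UMI was 24.9% in the library labelled wildtype and 23.3% in the library labelled knockout. The share with none of these 3 and a midbrain, hindbrain or rhombic lip UMI was 5.20% and 12.1%. Midbrain and hindbrain genes summed to 15.8 and 64.8 CPM in the other kept nuclei. They also stood at 16.9 and 61.6 CPM in the Unc5d set and at 3.24 and 66.2 CPM in the radial-glia set. Whether the libraries differed in the regions they held, and the part of these shares in the difference, was not tested.

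**Figure D4:**
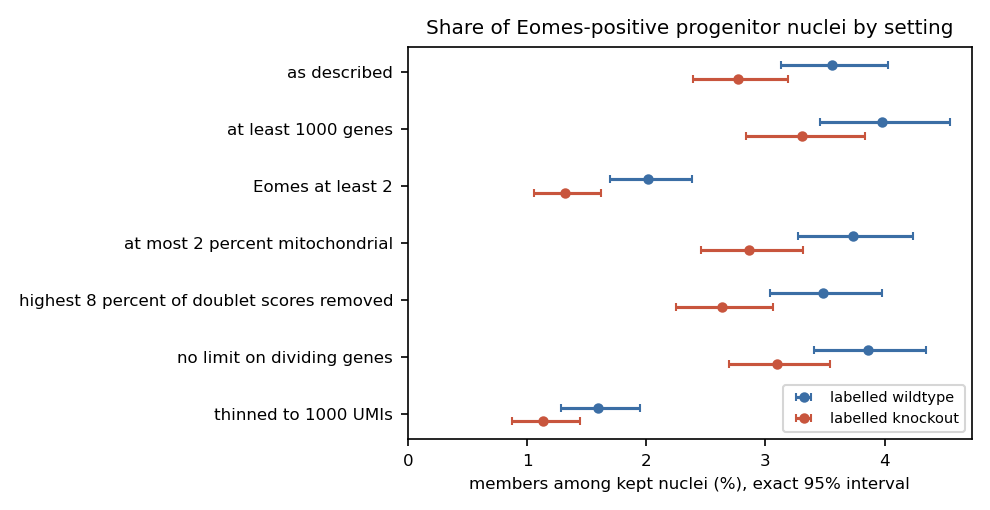
Members as a percent of kept nuclei (x axis) in each library, with exact 95% intervals, as described and in 6 other settings. The library labelled knockout has the lower share in every setting shown, from 3.56% against 2.77% as described to 1.59% against 1.13% at 1000 UMIs.

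Within members, summed UMIs were compared between the libraries for the 2876 genes. Past 1.5-fold, 76 genes (2.64%) were higher and 50 (1.74%) lower in the library labelled knockout, 126 in all (4.38%), and the middle of all log2 ratios was -0.02. Of the 76 higher genes, 0 were among the 90 leading genes of the members, and of the 50 lower genes 3 were, beside 3.13% of all genes compared, and nothing is read from either count. The 10 highest were 4930555F03Rik, Cntnap5a, Zfp804b, Sorcs3, Il1rapl2, Snhg11, Luzp2, Unc5c, Galntl6 and Jkamp, and the 10 lowest Lypd6, Anp32b, Etl4, Bmper, Pard3bos1, Snrpb, Igsf21, Wbp4, Nos1ap and Selenow.

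Some of the higher genes rested on few nuclei. Clustering of all kept nuclei placed 313 of 423 members (74.0%) in 2 of 23 clusters. Cluster 3 held 252, and its leading genes included Eomes, Svet1, Mfap4, Abcd2 and Unc5d. Cluster 17 held 61, and its leading genes included Dct, Creb5, Ccdc80 and Tfap2c. The remaining 110 members lay in 16 clusters and were deeper, with a median of 4065.5 UMIs against 2148. Cluster 9, led by 4933413L06Rik, D130009I18Rik, Gm15679 and Htr1f, held 5 members of the library labelled wildtype and 15 of the library labelled knockout, with a median of 8943 UMIs. It made up 9.03% of the members' UMIs in the former and 22.4% in the latter. Its members had a lower Eomes level, 365 and 171 CPM, than those of the 2 main clusters, 832 and 731 CPM, and all progenitor-associated genes summed to 2771 CPM there against 5694 CPM. No name was given to it. Its members gave a median of 37.2% of the knockout UMIs of the 76 higher genes, and over 50% for 20 of them.

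4930555F03Rik, a long noncoding RNA gene on chromosome 8, had 21 UMIs in the library labelled wildtype (31.4 CPM) and 90 in the library labelled knockout (150 CPM), a log2 ratio of 2.26 (interval 1.56 to 3.02). Of the 90, 64 lay in cluster 9 and 24 in cluster 6, and the 2 main clusters held 1 and 0 UMIs. Snhg11, a noncoding host gene of small nucleolar RNAs that is abundant in neurons, had 197 and 422 UMIs (295 and 704 CPM), a log2 ratio of 1.26 (1.01 to 1.51). Cluster 9 held 300 of the 422, and without it the log2 ratio was 0.01 (-0.34 to 0.36). Zfp804b, a zinc finger gene, was at 49.4 and 190 CPM, a log2 ratio of 1.95, and 83 of its 114 UMIs in the library labelled knockout lay in cluster 9. Without those members its log2 ratio was 0.39 (-0.38 to 1.15). Il1rapl2 and Galntl6 were then at 0.05 and 0.21. The other 6 stayed past 1.5-fold without cluster 9, with 4930555F03Rik highest (interval 0.47 to 2.62), Jkamp at 1.04, Cntnap5a at 0.99 (0.28 to 1.72), Sorcs3 and Luzp2 at 0.88 each and Unc5c at 0.60. Without cluster 9 the count of higher genes was 43, of which 27 were among the 76, and the count of lower genes was 67, of which 22 were among the 50. In the 2 main clusters alone 30 of 1570 genes were higher and 29 lower, with 7 and 11 of them among the 76 and the 50. Jkamp, a stress kinase-associated membrane protein gene on chromosome 12 that overlaps Ccdc175 on the other strand, was at 58.4 CPM (39 UMIs in 35 nuclei) and 122 CPM (73 UMIs in 58 nuclei), a log2 ratio of 1.06 (0.48 to 1.66), and in the 2 main clusters the log2 ratio was 1.30 (0.56 to 2.07). Cntnap5a, of the contactin-associated protein family, was at 2.55 (0.96 to 4.56) in the 2 main clusters.

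The 10 lowest genes kept their sign without cluster 9, with log2 ratios from -0.96 to -0.61. The nuclei left had also chosen these genes, so this describes them and is no separate result. Lypd6, a membrane-anchored modulator of Wnt signalling and the only gene on both the list of 20 leading genes and the list of 10 lowest, was at 192 CPM (128 UMIs in 60 nuclei) in the library labelled wildtype and 102 CPM (61 UMIs in 36 nuclei) in the library labelled knockout. Its log2 ratio was -0.91 (interval -1.38 to -0.46) over all members, -0.76 without cluster 9 and -0.84 in the 2 main clusters (-1.37 to -0.34). The other kept nuclei had 44.5 and 32.8 CPM, a log2 ratio of -0.44. Etl4 was at 241 and 134 CPM, a log2 ratio of -0.85 (-1.26 to -0.46), and at -0.78 in the 2 main clusters. Bmper, a regulator of bone morphogenetic protein signalling, was at 135 and 75.1 CPM, a log2 ratio of -0.84 (-1.39 to -0.31), and at -1.04 in the 2 main clusters. The other 7 had log2 ratios from -0.88 to -0.77. Among them Pard3bos1 lies on the opposite strand of Pard3b and Wbp4 overlaps Elf1, so their reads may not be separate. In the 2 main clusters 49 of the 50 lower genes kept the sign, 32 of them past 1.5-fold. Of the 76 higher genes, 62 kept the sign and 39 stayed past 1.5-fold. Those clusters are part of the nuclei that chose these genes, so keeping the sign is no separate result. In the libraries labelled wildtype and knockout, the median share of UMIs from outside those clusters was 35.7% and 39.4% for the lower genes. For the higher genes this share was 62.3% and 69.7%. The 32 and 39 include genes below the UMI minimum in those clusters, which the 11 and 7 shared genes above had to meet.

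**Figure D5:**
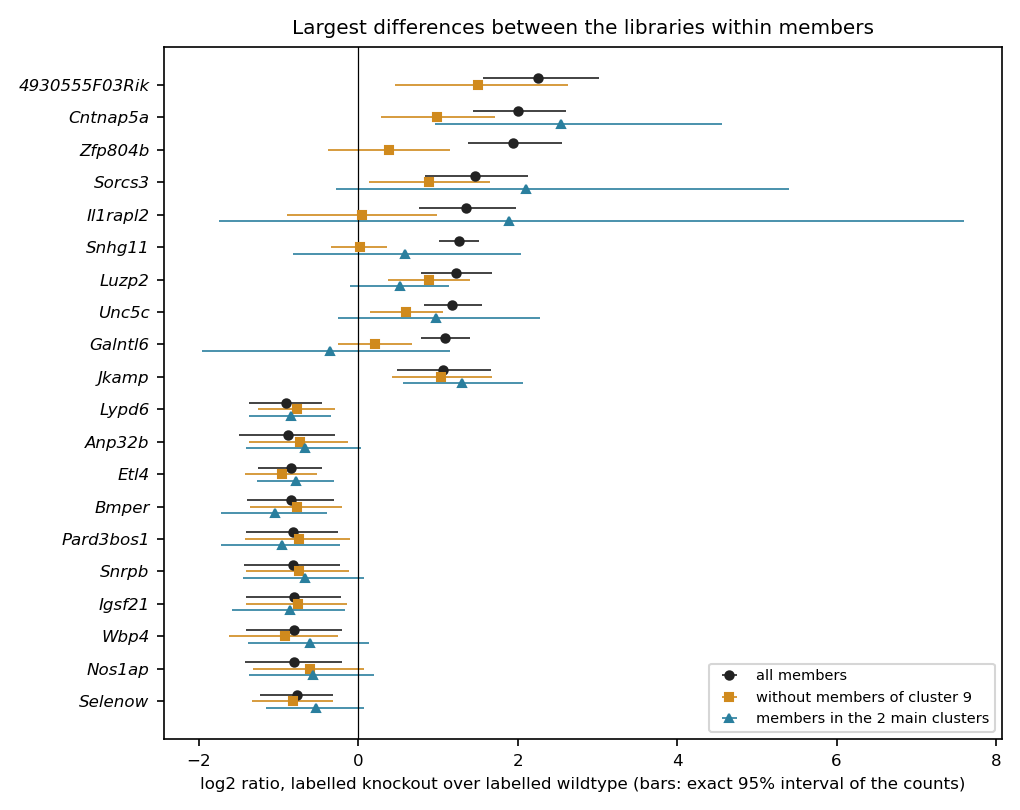
Log2 ratio of the library labelled knockout over the library labelled wildtype (x axis) for the 10 highest and 10 lowest genes, over all members, without members of cluster 9 and in the 2 main clusters, with exact 95% intervals of the counts. Without cluster 9, Snhg11 moves from 1.26 to 0.01 and Il1rapl2 from 1.36 to 0.05, while 4930555F03Rik, Cntnap5a, Sorcs3, Luzp2, Unc5c and Jkamp stay at 0.60 or above and the 10 lower genes stay below 0. A gene with 0 UMIs in 1 library has no point in the 2 main clusters.

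The genes by which the members were chosen are given as values only. They summed to 1145 and 981 CPM, a log2 ratio of -0.22 (interval -0.38 to -0.07), and without cluster 9 to a log2 ratio of -0.04 (-0.20 to 0.12). Eomes had a log2 ratio of -0.33 (-0.54 to -0.12) and Neurog2 of -0.07 (-0.38 to 0.24). Of the 16 progenitor-associated genes compared, 0 were past 1.5-fold in either direction, beside 4.38% of all genes, with a median log2 ratio of -0.07, and their sum had a log2 ratio of -0.11 (-0.19 to -0.04), or 0.00 without cluster 9. Of the 12 migration genes compared 0 were past 1.5-fold. Unc5d was at 1589 and 1834 CPM, a log2 ratio of 0.21 (0.08 to 0.33), and in the 2 main clusters of 0.41 (0.27 to 0.55), while in the other kept nuclei it was at 816 and 726 CPM. Robo1, a Slit receptor, was at 563 and 803 CPM, a log2 ratio of 0.51 (0.32 to 0.71), just inside 1.5-fold.

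Among the 8 Notch genes compared, only Maml2, a coactivator of Notch transcription, was past 1.5-fold (beside 4.38% of all genes compared), at 251 and 155 CPM, with a log2 ratio of -0.70 (interval -1.08 to -0.32) and of -0.87 in the 2 main clusters. Lhx2 was at 247 and 177 CPM, a log2 ratio of -0.48 (-0.85 to -0.12), inside 1.5-fold. Erythroid genes, which members should lack, were at 1068 and 744 CPM in members and at 1041 and 829 CPM in other nuclei, lower in the library labelled knockout in both, with Hba-a1 the only 1 of 3 compared past 1.5-fold (log2 ratio -0.73), and their part in the other values was not tested.

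The title of the study concerns metabolism, so metabolic lists were read in members. Pfkp, a phosphofructokinase of glycolysis, had a log2 ratio of 0.71 (interval 0.18 to 1.24) that turned to -0.31 without cluster 9. The lists summed to 785 and 788 CPM for glycolysis, 1155 and 1015 CPM for the citrate cycle, 1133 and 1173 CPM for cholesterol synthesis and 919 and 970 CPM for fatty acid metabolism, with log2 ratios from -0.19 to 0.08.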

How the data were processed

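Single-nucleus 3′ RNA-seq (10x Genomics chemistry version 3.1) was measured in 1 wildtype and 1 Cav1 knockout sample of whole fetal mouse brain. Deposited values are unnormalized counts of UMIs for each gene in each barcode. The file headers name Cell Ranger 6.1.1, while the submitters' processing notes name Cell Ranger 3.0.1, STAR and the GRCm39 build. Whether intronic reads were counted and whether strand was used is not given in the sources used here. The members and gene lists were chosen with earlier results of these data known.

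UMIs were summed per library over nuclei and scaled to CPM, with exact Poisson, exact conditional (ratios), Clopper-Pearson (shares) and Newcombe (differences) intervals, in scipy 1.17.1. The ratio and share intervals were tried on simulated Poisson and binomial counts, the models they assume. UMIs gathered in few nuclei were not simulated, so the simulation does not show how the intervals hold for such genes. Named genes were the 10 highest and 10 lowest log2 ratios with at least 100 UMIs, the 20 highest folds over other nuclei, genes of the lists described by role, list genes past 1.5-fold, and genes at Cav1, and some of these genes are not reported here. Clusters came from scanpy 1.11.5 (2000 variable genes, 30 components, 15 neighbours, Leiden resolution 1), and their use was chosen after seeing the data. Scrublet's own threshold marked 0 nuclei, so it did not work, and doublets were kept except in an alternative without the highest 8% of scores. Gene positions are GENCODE M39 on GRCm39 (98.8% of 55416 identifiers matched). Total UMIs were 19048835 and 22504908.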

Additional observations from a re-analysis of the deposited data

How the results depend on the processing

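No paired analysis was possible because each genotype has 1 library. With a minimum of 1000 genes the share in the library labelled knockout was 3.31%. With at least 2 Eomes UMIs the shares were 2.02% and 1.32%, and at 1000 UMIs 1.59% and 1.13%. Genes past 1.5-fold, 76 higher and 50 lower, were 2.64% and 1.74% of the 2876 compared, and the number compared changed with the setting. With at least 20 UMIs per gene the counts were 809 and 840 of 9377 (8.63% and 8.96%). With at least 200 they were 29 and 10 of 1283 (2.26% and 0.78%). At 1000 UMIs per nucleus they were 11 and 14 of 686 (1.60% and 2.04%). In 3 settings chosen after seeing the data, the 2 main clusters had 30 and 29 of 1570. Without members over 3 times the median UMI the counts were 48 and 42 of 2262. Without cluster 9 they were 43 and 67 of 2423. With at least 2 Eomes UMIs they were 61 and 52 of 1424 (4.28% and 3.65%), of which 25 and 13 were shared. The highest doublet scores were held by 10.6% of members and 7.45% of other nuclei. Without them the counts were 70 and 38 of 2255, of which 49 and 15 were shared. Leading genes numbered 148 in the 2 main clusters against 90, and 70 with at least 2 Eomes UMIs, where 12 of the 20 named still led. Thinned to 1000 UMIs, radial glia genes were found in 76.4% and 67.0% of members and cortical neuron genes in 82.5% and 84.9%. Log2 ratios changed sign for mural genes (-0.62 with at least 2 Eomes UMIs, -0.29 in the 2 main clusters), Neurog1 (0.94 thinned), Pfkp (-0.11 thinned, -0.31 without cluster 9) and Galntl6 (-0.35 in the 2 main clusters). The cause was not tested. Over all alternatives of the main results, 29 values stayed within the main interval or 1.5 times the main count and 20 moved, and for single genes and lists 665 stayed, 56 moved and 6 changed sign. A selection of members by region genes is not reported here. With 1 library per genotype, the depth of 238 and 185 members limits what can be seen for genes under 100 UMIs.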
